A study of Homo sapiens with 18 samples.

Results

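Macroautophagy is the route by which a cell encloses part of its own cytoplasm in a double membrane and delivers it to the lysosome. The ULK kinase complex starts the process, the beclin-containing lipid kinase complex marks the site with the lipid PI3P, and a ubiquitin-like conjugation system attaches ATG8 proteins to the growing membrane, where cargo receptors bind them. In cancer cells and in hepatic stellate cells the pathway is known mainly as a source of recycled nutrients, and stellate cells also use it to break down lipid droplets. The 10 core genes described here were taken by symbol from a list that spans these steps. They are ULK1, the kinase that starts autophagy; BECN1, a scaffold of the lipid kinase complex; WIPI1, a reader of PI3P; ATG7, the activating enzyme of the conjugation system; ATG5, part of the complex that directs ATG8 conjugation; the ATG8 proteins MAP1LC3B, GABARAP, GABARAPL1 and GABARAPL2; and SQSTM1, or p62, a receptor for ubiquitinated cargo. All 10 were listed, and passed the filter on low values, in each of the 3 deposited tables, which together hold 35579 distinct gene identifiers.

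The 18 libraries hold poly(A) RNA of human cell lines, 3 libraries in each of 6 groups. The colorectal carcinoma line SW480 gave 4 of the groups. SW480-LM3 was derived from it over 3 rounds of selection for metastasis after injection into the spleen, and was set against the parental SW480-P. LX-2 is a line of hepatic stellate cells, the liver cells that make scar matrix. It was given extracellular vesicles that contained NID1, a basement membrane protein, for 48 hours (EV-XP-NID1-LX-2). The comparison group was LX-2 given control vesicles, also for 48 hours (EV-XP-LX-2), and what XP stands for is not stated. LV5-NID1 is SW480 with NID1 overexpressed, kept for 72 hours in GW4869, a blocker of neutral sphingomyelinase and so of vesicle release, and was set against LV5. Whether the control had GW4869 too is not stated, so NID1 and GW4869 cannot be told apart as sources of a difference. No clone, vector, promoter or batch is named. Separate cultures are not stated for the replicates either, so the p-values measure the spread between libraries, part of which may be technical.

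The NID1 transcript averaged 46.9 ± 2.21 in SW480-LM3 and 0.501 ± 0.129 in SW480-P (signal, SD, n = 3 each). It averaged 359.9 ± 16.6 TPM in LV5-NID1 and 0.02 ± 0.02 TPM in LV5. In LX-2 it averaged 20.8 ± 2.44 TPM with NID1 vesicles and 25.4 ± 0.5 TPM with control vesicles, but vesicle protein is not measured by the recipient cells' mRNA. The colorectal markers CDH1, VIL1 and CDX2 were under 1 TPM in every LV5-NID1 and LV5 library, while KRT18 averaged 546 ± 35.2 and 861 ± 15.8 TPM in those groups. The mesenchymal marker VIM averaged 1341 ± 127 TPM in EV-XP-NID1-LX-2 and 1887 ± 80.8 TPM in EV-XP-LX-2. Across 14744 shared genes the ranks of SW480-LM3 correlated with those of SW480-P at a Spearman rho of 0.793, with LV5 at 0.694 and with EV-XP-LX-2 at 0.713, so SW480-LM3 stood no nearer to LV5, which is also labelled SW480, than to the stellate line. SW480-P, from the same table, correlated at 0.886 with LV5 and 0.794 with EV-XP-LX-2. Whether SW480-LM3 is the line its label names was not tested. One library stood apart from its group: LV5-NID1 replicate 3 correlated with its 2 replicates at r = 0.9587 and 0.969 across genes, while the other pairs within LV5-NID1 and LV5 lay at 0.9863 to 0.9891.

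**Figure D1:**
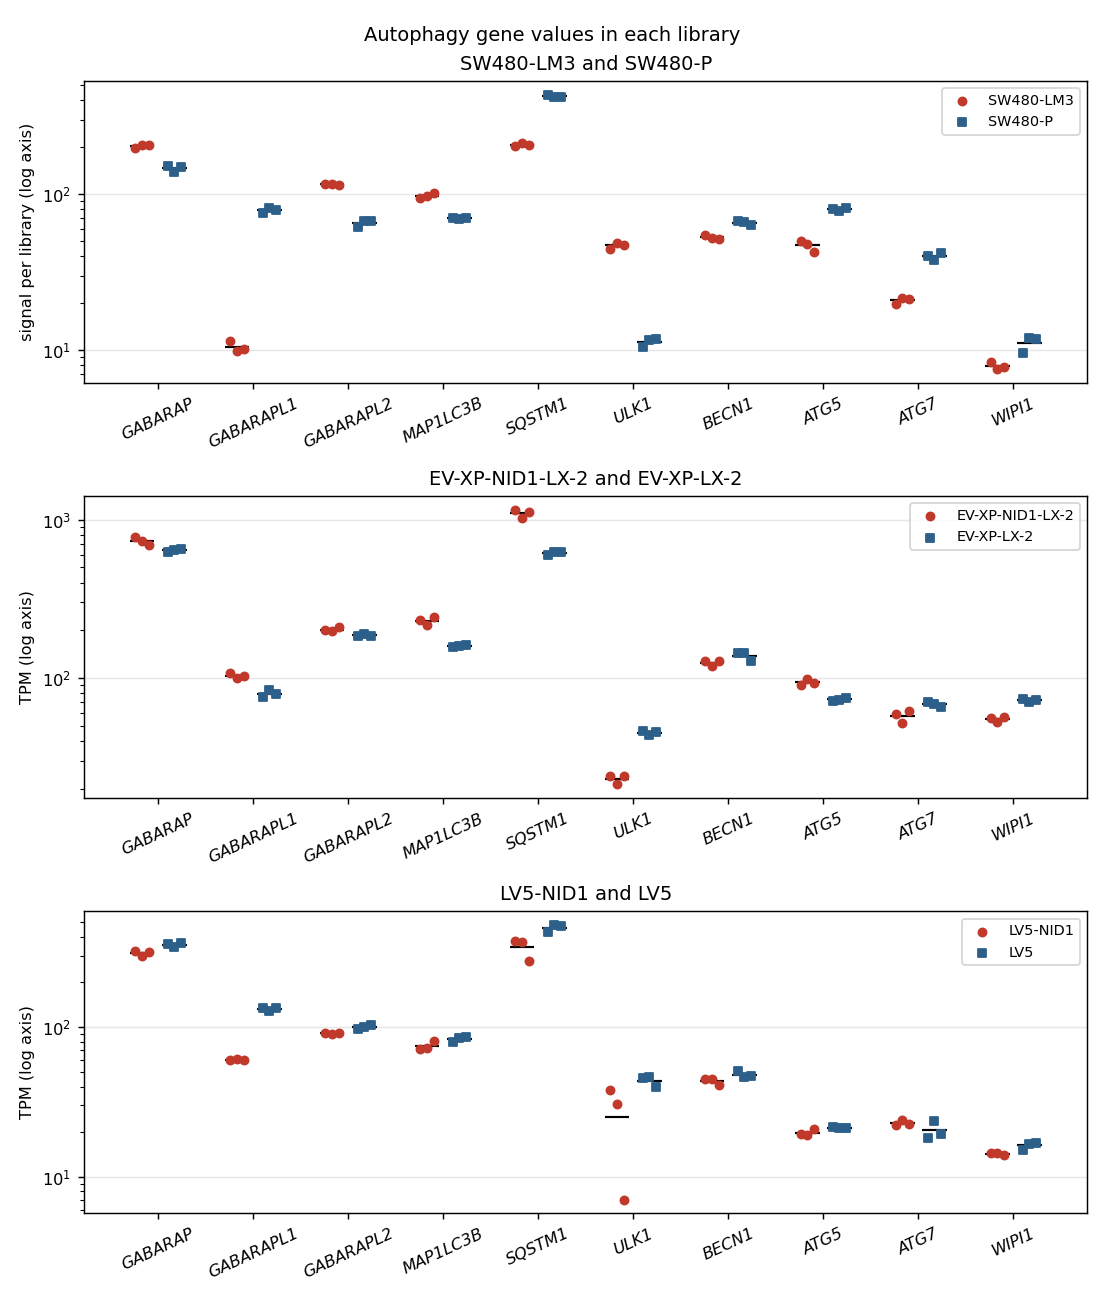
Value of each core autophagy gene in every library on log axes, as signal (top panel) or as TPM (lower panels); points are libraries and short lines are group means. GABARAPL1 lies lower in SW480-LM3 and LV5-NID1 than in their controls, and ULK1 in LV5-NID1 replicate 3, at 7.06 TPM, lies far from its replicates.

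The RefSeq promoter windows of GABARAPL1, ULK1 and MAP1LC3B are printed because the largest differences below are those of GABARAPL1 and ULK1, and because GABARAPL1 and MAP1LC3B were the genes with a motif match. Each runs from 250 bases before to 50 bases after an annotated start on GRCh38.p14. GABARAPL1 is at chr12:10212627-10212926, ULK1 at chr12:131894372-131894671 and MAP1LC3B at chr16:87392086-87392385, all on the plus strand, and capitals mark a motif match.
GABARAPL1: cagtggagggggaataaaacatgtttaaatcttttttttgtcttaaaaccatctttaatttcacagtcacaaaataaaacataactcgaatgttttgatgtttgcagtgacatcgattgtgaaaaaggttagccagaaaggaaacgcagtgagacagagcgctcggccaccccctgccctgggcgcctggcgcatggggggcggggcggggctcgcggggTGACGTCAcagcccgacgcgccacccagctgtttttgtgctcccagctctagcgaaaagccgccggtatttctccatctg
ULK1: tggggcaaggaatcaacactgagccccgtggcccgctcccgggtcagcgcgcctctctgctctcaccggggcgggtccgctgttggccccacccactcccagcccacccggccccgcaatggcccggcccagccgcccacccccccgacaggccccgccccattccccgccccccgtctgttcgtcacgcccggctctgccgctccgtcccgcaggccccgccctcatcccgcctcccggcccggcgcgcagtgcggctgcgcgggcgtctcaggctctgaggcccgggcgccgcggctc
MAP1LC3B: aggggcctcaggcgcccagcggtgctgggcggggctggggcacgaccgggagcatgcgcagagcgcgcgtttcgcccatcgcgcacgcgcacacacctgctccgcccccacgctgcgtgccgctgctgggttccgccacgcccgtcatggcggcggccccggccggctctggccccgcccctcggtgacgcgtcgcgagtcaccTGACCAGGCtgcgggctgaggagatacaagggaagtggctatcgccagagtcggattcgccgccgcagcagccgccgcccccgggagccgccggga
The capitals in GABARAPL1 are the cyclic AMP response element TGACGTCA, whose first base lies at -30 from the start. That element was found in 1.85% of 35116 RefSeq windows of this length. The capitals in MAP1LC3B are a match to the antioxidant response element TGACNNNGC at -46, a motif found in 13.3% of windows. The ULK1 window held none of the 6 motifs searched on both strands. The other 4 motifs were the E-box CACGTG, in 7.26% of windows; the CLEAR element, which is the E-box between GT and AC and was in 0.353%; the forkhead motif GTAAACA, in 3.42%; and the C/EBP-ATF motif TGATGNAA, in 3.62%. None of these 4 was found in the 13 windows of the 10 genes, which says only that these letters are not in these windows. The motifs were chosen with the expression values known, and a match is a description of the sequence.

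In SW480-LM3, GABARAPL1 was 7.46-fold lower than in SW480-P, while ULK1 was 4.16-fold higher. The other ATG8 genes GABARAP, GABARAPL2 and MAP1LC3B rose. SQSTM1, both conjugation genes ATG5 and ATG7, BECN1 and WIPI1 fell. Thus 4 of the 10 genes rose and 6 fell, in a comparison in which 87.8% of the 14527 genes tested were called, 43.9% higher and 43.9% lower. A call here and below is a Benjamini-Hochberg adjusted p under 0.05 over all genes tested, from limma on log2(value + 1). The 10 genes' median absolute log2 fold change was 0.78, against 0.9 over all genes tested. Calls with a change of at least 1 on the log2 scale were found for GABARAPL1, SQSTM1 and ULK1, and for 45.4% of all genes. Of the colorectal markers, 6 of 7 tested rose and none fell, and their summed signal was 13175 to 13888 in SW480-LM3 and 3522 to 3789.5 in SW480-P, most of it KRT8, at 7410.0 ± 197 and 1850.4 ± 88.4 in those groups. The endothelial marker ESAM averaged 0.206 ± 0.108 in SW480-LM3 and 32.2 ± 1.39 in SW480-P. The part of these in the results was not tested.

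Values in this table are read counts divided by a scaling factor per library, here called signal, and are not per length, so they are compared between groups and not between genes. ULK1 had a signal of 44.604, 48.853 and 47.562 in the SW480-LM3 libraries, against 10.465, 11.65 and 11.773 in the SW480-P libraries. Every SW480-LM3 library lay above every SW480-P library. These signals stand for 767 to 877 reads per SW480-LM3 library and 147 to 200 per SW480-P library, and the log2 fold change was 1.97 (SE 0.079, limma adjusted p 5.08e-12). When trends on GC content and transcript length were removed, an adjustment added after the data were seen, the ULK1 change was 0.87, with an adjusted p of 3.82e-08 (range over all alternatives 9.98e-81 to 2.88e-07). In bulk RNA, fewer cells that express a gene and less of its RNA per cell cannot be told apart.

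BECN1 and WIPI1, which act at the site of membrane formation, had smaller fold changes. BECN1 averaged 52.9 ± 1.4 in SW480-LM3 and 65.7 ± 2.39 in SW480-P (signal, SD, n = 3 each), with a log2 fold change of -0.31 (limma adjusted p 5.81e-05). WIPI1 gave 8.432, 7.547 and 7.864 in SW480-LM3 and 9.611, 11.941 and 11.843 in SW480-P, from 129 to 145 and 135 to 205 reads. The WIPI1 groups did not overlap, but its lowest SW480-P library lay close to the highest SW480-LM3 library, and the log2 fold change was -0.43 (limma adjusted p 0.00275). Scaling each library to its total moved the median of all genes by 0.267 on the log2 scale, and both calls were then lost. BECN1 was at -0.03 under that scaling, with a limma adjusted p of 0.653 (range over alternatives 1.58e-06 to 0.653). WIPI1 was at -0.17 with an adjusted p of 0.169, and at -0.06 with 0.646 after removal of GC and length trends (range 0.000181 to 0.646).

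Both conjugation genes fell. ATG5 had a signal of 50.012, 48.033 and 42.844 in SW480-LM3, against 80.16, 77.528 and 81.421 in SW480-P, a log2 fold change of -0.75 (limma adjusted p 1.63e-08). ATG7 had 19.656, 21.764 and 21.205 in SW480-LM3, against 40.293, 37.978 and 41.662 in SW480-P, a log2 fold change of -0.91 (limma adjusted p 1.43e-08). Both genes were lower in all 3 SW480-LM3 libraries, with no overlap. Removal of GC and length trends left ATG5 at -0.18 and put ATG7 at -1.36, with limma adjusted p-values of 0.00565 (range over alternatives 2.44e-27 to 0.00565) and 2.84e-11 (range 4.75e-23 to 9.21e-06).

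Among the ATG8 genes, GABARAPL1 had a signal of 11.514, 9.888 and 10.25 in SW480-LM3, from 169 to 198 reads, against 75.817, 81.198 and 79.165 in SW480-P, from 1065 to 1394 reads. Its log2 fold change was -2.79 (SE 0.074, limma adjusted p 4.58e-14). The groups were far apart, and 467 of the 14527 genes tested had a lower log2 fold change. GABARAP averaged 204 ± 4.66 in SW480-LM3 and 146 ± 6.92 in SW480-P, GABARAPL2 115 ± 1.43 and 65.2 ± 2.82, and MAP1LC3B 97.8 ± 3.94 and 69.9 ± 0.978 in the same groups (signal, SD, n = 3 each). Their log2 fold changes were 0.48, 0.81 and 0.48, with limma adjusted p-values of 4.77e-08, 3.24e-10 and 1.64e-07. Removal of GC and length trends put GABARAP at 0.93 and GABARAPL2 at 1.57. SQSTM1 had a signal of 203.421, 213.137 and 206.302 in SW480-LM3, against 432.549, 417.346 and 417.467 in SW480-P. Its libraries hardly varied within a group, and it was 2.03-fold lower in SW480-LM3 (log2 fold change -1.02, SE 0.034, limma adjusted p 5.48e-13). The SQSTM1 change was -1.55 with GC and length trends removed, and -0.73 with library-total scaling and with quantile normalization. For all 10 genes the groups did not overlap, as for 87.6% of all genes tested.

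**Figure D2:**
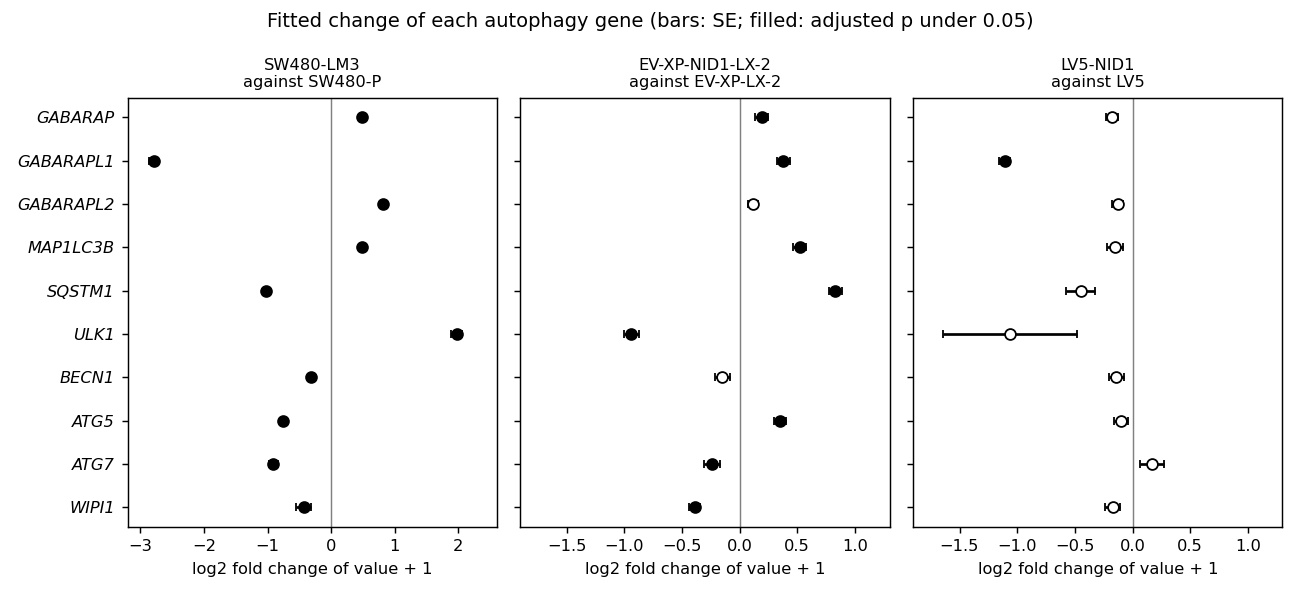
Fitted log2 fold change of value + 1 for each core gene in the 3 comparisons, with bars for the standard error; filled points have a limma adjusted p under 0.05. GABARAPL1 is at -2.79 in SW480-LM3, 0.38 in EV-XP-NID1-LX-2 and -1.11 in LV5-NID1, and the axes differ in range.

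In LX-2 cells given NID1 vesicles, SQSTM1, MAP1LC3B, GABARAPL1, ATG5 and GABARAP rose, and ULK1, WIPI1 and ATG7 fell. The changes were under 2-fold, with SQSTM1 1.78-fold higher and ULK1 1.95-fold lower. These 8 calls among 10 genes stand beside 42.3% of the 15802 genes tested, 17.8% higher and 24.6% lower. The median absolute log2 fold change was 0.37 for the 10 genes and 0.24 over all genes. None of the 10 was called with a change of at least 1 on the log2 scale, as 1.77% of all genes were. The stellate and mesenchymal markers were lower in the same libraries: 5 of the 8 fell, and their summed level was 1677 to 1994 TPM with NID1 vesicles and 2591 to 2774 TPM with control vesicles. Falls were not limited to that list. In each of the colorectal, hepatocyte, leukocyte and endothelial lists 1 tested gene fell and none rose. The leukocyte marker CD68 averaged 18.6 ± 2.69 TPM with NID1 vesicles and 43.7 ± 1.99 TPM with control vesicles. Transcripts encoded by mitochondria made up 3.519 to 3.775% of the TPM with NID1 vesicles and 5.946 to 6.175% with control vesicles. The part of either in the results was not tested, except that rescaling without mitochondrial genes left 7 of the 8 calls.

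ULK1 measured 24.1, 21.24 and 23.97 TPM in the EV-XP-NID1-LX-2 libraries, against 46.42, 43.59 and 45.33 TPM in the EV-XP-LX-2 libraries. The groups did not overlap, and 316 of the 15802 genes tested had a lower log2 fold change than the -0.94 of ULK1 (SE 0.066, limma adjusted p 0.000234). WIPI1 measured 55.75, 52.81 and 56.79 TPM with NID1 vesicles and 73.1, 70.89 and 72.92 TPM with control vesicles, a log2 fold change of -0.39 (limma adjusted p 0.00114). It too was lower in every treated library. BECN1 averaged 125 ± 5.97 TPM with NID1 vesicles and 139 ± 8.94 TPM with control vesicles (SD, n = 3 each). The BECN1 groups overlapped and it was not called, at a log2 fold change of -0.15 (limma adjusted p 0.0991). It was called with quantile normalization and without EV-XP-LX-2 replicate 3, at adjusted p-values of 0.0194 and, just under the threshold, 0.05 when rounded (range over alternatives 0.0194 to 0.262).

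The conjugation genes went opposite ways. ATG5 measured 90.01, 98.48 and 92.23 TPM with NID1 vesicles and 71.71, 73.05 and 74.91 TPM with control vesicles, a log2 fold change of 0.35 (limma adjusted p 0.00192). ATG7 measured 59.18, 52.19 and 61.4 TPM with NID1 vesicles and 70.44, 68.4 and 65.36 TPM with control vesicles, a log2 fold change of -0.24 (limma adjusted p 0.0287). Neither gene's groups overlapped. The ATG7 call was lost in 4 of 16 alternatives, among them without EV-XP-LX-2 replicate 1 or 2, at adjusted p-values of 0.1 and 0.079 (range 0.00975 to 0.1), and removal of GC and length trends left its change at -0.13.

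MAP1LC3B measured 230.94, 214.31 and 243.4 TPM with NID1 vesicles and 156.8, 160.1 and 161.52 TPM with control vesicles, a log2 fold change of 0.52 (limma adjusted p 0.000631). GABARAPL1 measured 107.74, 99.39 and 103.18 TPM with NID1 vesicles and 75.35, 83.63 and 78.62 TPM with control vesicles, a log2 fold change of 0.38 (limma adjusted p 0.00204). Both ATG8 genes were higher in all treated libraries. GABARAP measured 772.52, 727.03 and 692.85 TPM with NID1 vesicles and 619.92, 646.67 and 655.7 TPM with control vesicles, a log2 fold change of 0.19 (limma adjusted p 0.0247). That call was lost in 9 of 16 alternatives, with a highest adjusted p of 0.441 under quantile normalization, where the change was 0.06 (range 0.00836 to 0.441). Leaving out EV-XP-NID1-LX-2 replicate 1 ended it (0.0697), as did leaving out EV-XP-LX-2 replicate 1 (0.0995), 2 (0.0648) or 3 (0.0561). GABARAPL2 averaged 202 ± 6.42 TPM with NID1 vesicles and 186 ± 3.14 TPM with control vesicles and was not called (log2 fold change 0.12, limma adjusted p 0.0627). It was called with median-ratio scaling, after removal of GC and length trends, and when EV-XP-NID1-LX-2 replicate 2 was left out, at adjusted p-values of 0.0122, 0.0314 and 0.0214 (range over alternatives 0.0122 to 0.735).

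SQSTM1 measured 1150.25, 1016.58 and 1123.56 TPM with NID1 vesicles, against 594.87, 622.09 and 628.23 TPM with control vesicles. The lowest treated library was well above the highest control, and the log2 fold change was 0.83 (SE 0.057, limma adjusted p 0.000232). A higher log2 fold change was found for 221 of the 15802 genes tested, or 1.4%. Of all calls in this comparison 41.9% were higher. That share was 53.5% after removal of GC and length trends, 51.3% with median-ratio scaling and 36.1% after rescaling without mitochondrial genes, and no core gene changed direction under these. The groups did not overlap for 9 of the 10 genes, 6 higher and 3 lower, beside 55.9% of all genes, 23.4% higher and 32.5% lower.

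In LV5-NID1, GABARAPL1 fell 2.17-fold, and it was the single core gene called. Of the other genes, 8 had lower and 1 had higher fitted values in LV5-NID1, and none passed the threshold. This is 1 call among 10 genes, in a comparison with 16.6% of the 15508 genes tested called, 7.27% higher and 9.32% lower. At an unadjusted limma p under 0.05 5 of the 10 were lower and 0 higher, beside 17.2% and 17.1% of all genes. The median absolute log2 fold change of the 10 genes was 0.17, against 0.2 over all genes, and GABARAPL1 was the one core gene that was both called and past 1 on the log2 scale, as were 1.42% of all genes. Of the 4 colorectal markers tested 1 rose and 3 fell. The list summed to 927 to 988 TPM in LV5-NID1 and 1631 to 1672 TPM in LV5. None of the 4 mesenchymal markers tested was called. The part of the marker shift in the results was not tested.

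GABARAPL1 measured 60.31, 61.48 and 59.85 TPM in the LV5-NID1 libraries, against 133.68, 127.81 and 133.14 TPM in the LV5 libraries. Its LV5-NID1 libraries lay within 2 TPM of each other, LV5-NID1 replicate 3 included, and far below every LV5 library. The log2 fold change was -1.11 (SE 0.045, limma adjusted p 0.000267), and 306 of 15508 genes, or 1.97%, had a lower one. The GABARAPL1 call held in all 16 alternatives, with log2 fold changes up to -1.01 and adjusted p-values of 0.000171 to 0.0135.

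ULK1 measured 37.89, 30.81 and 7.06 TPM in LV5-NID1, against 45.65, 46.16 and 39.97 TPM in LV5. All LV5-NID1 libraries lay below the LV5 libraries, but the lowest, replicate 3, departed by -2.13 on the log2 scale from the other 2. The log2 fold change of -1.06 had a standard error of 0.579 and was not called (limma adjusted p 0.246). Without LV5-NID1 replicate 3 it was -0.35, with an adjusted p of 0.0666 (range over alternatives 0.0666 to 0.401). ULK1 has a GC content of 64.2% in its longest GENCODE 29 transcript, the highest of the 10 genes. Over genes with 60% GC or more, LV5-NID1 replicate 3 departed from the other 2 libraries of its group by a median of -0.66 on the log2 scale, and over genes under 40% by 0.13. The rank correlation of its departure with GC content across genes was -0.546. For LV5-NID1 replicate 1 that correlation was 0.546, and its median departure over genes with 60% GC or more was 0.45. Because each library is set against the other 2, replicate 3 enters the departures of replicates 1 and 2.

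SQSTM1, with 58.0% GC, measured 375.06, 369.9 and 277.49 TPM in LV5-NID1, against 429.24, 479.46 and 474.06 TPM in LV5. Replicate 3 was again the lowest LV5-NID1 library, and the log2 fold change of -0.45 was not called (limma adjusted p 0.0615). Without LV5-NID1 replicate 3, 4 of the 10 genes were called, all lower: GABARAPL1, SQSTM1, MAP1LC3B and GABARAP. In that fit 8.38% of all genes were called higher and 13.1% lower. SQSTM1 was then at -0.3 with an adjusted p of 0.0176 (range over alternatives 0.0176 to 0.168), MAP1LC3B at -0.21 with 0.0388 (range 0.0388 to 0.638) and GABARAP at -0.19 with 0.045 (range 0.045 to 0.25). With all libraries and removal of GC and length trends the count was also 4, namely GABARAPL1, SQSTM1, GABARAPL2 and ATG5, again all lower, where 12.2% of all genes were called higher and 12.2% lower. SQSTM1 was then at -0.27 with an adjusted p of 0.0293, GABARAPL2 at -0.15 with 0.0447 (range 0.0447 to 0.44) and ATG5 at -0.17 with 0.0453 (range 0.0453 to 0.658).

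**Figure D3:**
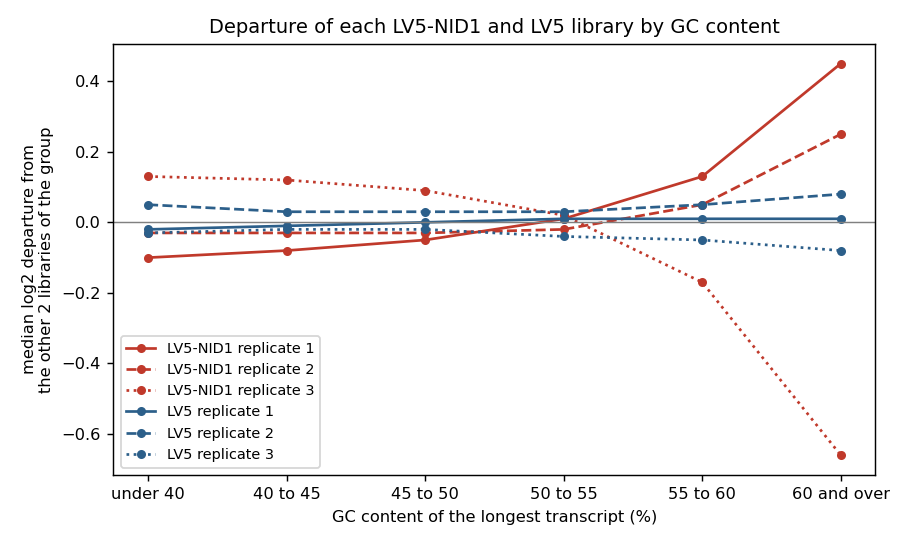
Median log2 departure of each LV5-NID1 and LV5 library from the other 2 libraries of its group, for genes binned by the GC content (%) of their longest transcript; lines join bins of 1 library. LV5-NID1 replicate 3 falls to -0.66 in the bin of 60% and over, and replicates 1 and 2 rise to 0.45 and 0.25, while the LV5 libraries stay within 0.08 of 0.

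The other core genes had small fitted differences in LV5-NID1, none called. GABARAP averaged 313 ± 13 TPM in LV5-NID1 and 355 ± 10.5 TPM in LV5, with a limma adjusted p of 0.0595. GABARAPL2 measured 91.22, 90.47 and 91.94 TPM in LV5-NID1 and 97.3, 99.8 and 102.94 TPM in LV5, with an adjusted limma p of 0.0963. MAP1LC3B averaged 74.8 ± 4.98 TPM in LV5-NID1 and 83.3 ± 3.61 TPM in LV5. Every one of these was lower on average in LV5-NID1. BECN1 averaged 43.7 ± 2.24 TPM in LV5-NID1 and 48.2 ± 2.52 TPM in LV5. The GABARAP, GABARAPL2 and BECN1 groups did not overlap, while the MAP1LC3B groups did. ATG5 averaged 19.8 ± 0.939 TPM in LV5-NID1 and 21.3 ± 0.164 TPM in LV5, and WIPI1 14.3 ± 0.217 and 16.2 ± 0.91 TPM. ATG7 averaged 23 ± 0.988 TPM in LV5-NID1 and 20.4 ± 2.97 TPM in LV5 (SD, n = 3 each for all). It was the one gene with a higher fitted value in LV5-NID1 (log2 fold change 0.17, limma adjusted p 0.305), and its groups overlapped. Of the 10 genes, 8 had groups without overlap, all lower in LV5-NID1, beside 43.3% of all genes tested, 21.7% higher and 21.6% lower.

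The 4 ATG8 genes are alternative substrates of one conjugation system, so their make-up was also expressed as each gene's share of their summed value in a library, a ratio that does not depend on scaling between libraries. GABARAPL1 made up 2.47 ± 0.233% of the sum in SW480-LM3 and 21.9 ± 0.914% in SW480-P. It made up 8.17 ± 0.125% with NID1 vesicles and 7.43 ± 0.271% with control vesicles in LX-2. In LV5-NID1 it made up 11.2 ± 0.47%, and in LV5 19.6 ± 0.269% (SD, n = 3 each). The SW480-LM3 shares come from values that are not per length, so they are set only against SW480-P. For each of the 12 shares, the groups did not overlap, and the exact two-sided permutation p was 0.1, the smallest that 3 against 3 can give, and 0.1 after Benjamini-Hochberg adjustment over the 12. The 4 shares of a library sum to the whole, so they are not separate results, and a lower share of one gene raises the others by arithmetic.

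The other 3 shares differed by fewer percentage points in the SW480 comparisons. GABARAP made up 47.7 ± 0.497% in SW480-LM3 and 40.6 ± 1.58% in SW480-P, and 58 ± 1.05% in LV5-NID1 and 53 ± 0.705% in LV5. With NID1 vesicles it made up 57.7 ± 1.94%, and with control vesicles 60.1 ± 0.456%. GABARAPL2 made up 27 ± 0.676% in SW480-LM3 and 18.1 ± 0.826% in SW480-P. In LV5-NID1 its share was 16.9 ± 0.347%, and in LV5 14.9 ± 0.367%, although its own TPM was lower on average in LV5-NID1. The GABARAPL2 share was lower with NID1 vesicles, at 16 ± 0.774%, against 17.5 ± 0.308% with control vesicles. MAP1LC3B made up 18.1 ± 1.18% with NID1 vesicles and 15 ± 0.16% with control vesicles, the largest shift of a share in LX-2. The summed value was 421.0 to 432.0 in SW480-LM3 and 355.0 to 365.0 in SW480-P as signal. It was 1238.0 to 1310.5 TPM with NID1 vesicles and 1036.0 to 1081.0 TPM with control vesicles, and 523.0 to 550.5 TPM in LV5-NID1 and 656.0 to 684.0 TPM in LV5. The sum was thus higher in SW480-LM3 and with NID1 vesicles, and lower in LV5-NID1, without overlap in any of the 3 comparisons.

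**Figure D4:**
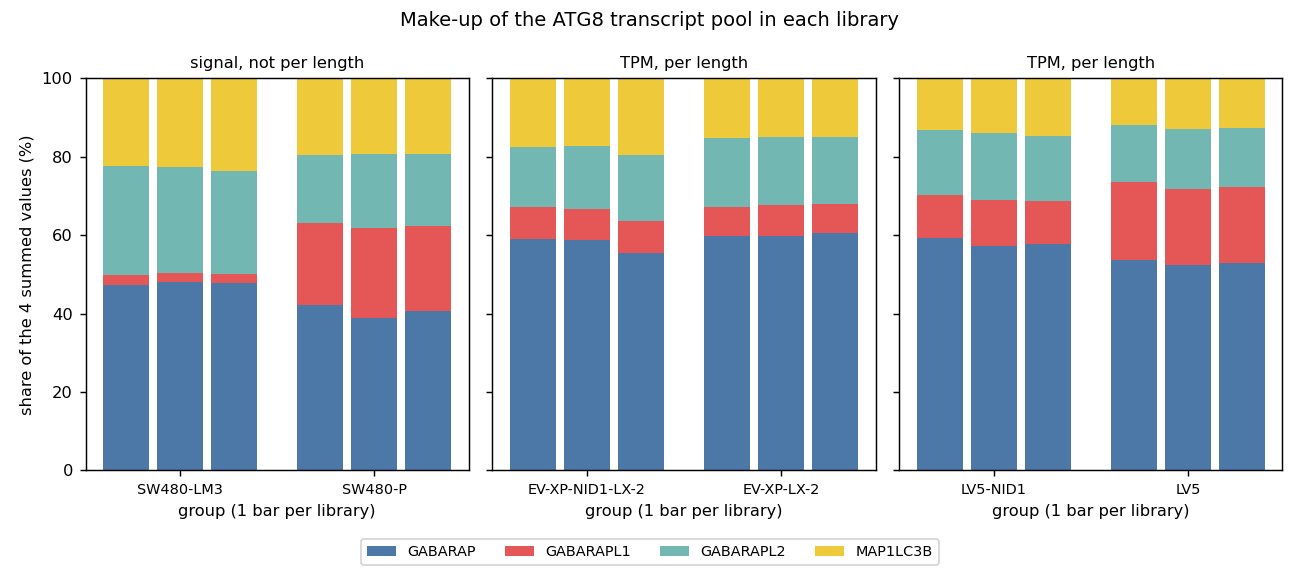
Share (%) of GABARAP, GABARAPL1, GABARAPL2 and MAP1LC3B in their summed value, with 1 bar per library. The GABARAPL1 segment averages 2.47% in SW480-LM3 and 21.9% in SW480-P, and 11.2% in LV5-NID1 and 19.6% in LV5; signal is not per length, so segments of the left panel are compared between groups only.

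In TPM, which is per length, the core genes can be ranked within a group. SQSTM1 and GABARAP were the highest in each of the 4 groups with TPM. In EV-XP-NID1-LX-2, SQSTM1 at 1097 ± 70.7 TPM stood above GABARAP at 731 TPM on average without overlap, whereas in EV-XP-LX-2 SQSTM1 at 615 ± 17.8 TPM overlapped with GABARAP at 641 ± 18.6 TPM. The same pair did not overlap in LV5 but did in LV5-NID1, through replicate 3 alone, with SQSTM1 at 277.49 TPM. In LV5-NID1 replicates 1 and 2 SQSTM1 was at 375.06 and 369.9 TPM, above the highest GABARAP value of 323.39 TPM. ULK1 was the lowest in both LX-2 groups, at 23.1 ± 1.62 TPM with NID1 vesicles and 45.1 ± 1.43 TPM with control vesicles. WIPI1 had the lowest mean in LV5-NID1 and in LV5, although ULK1 in LV5-NID1 replicate 3, at 7.06 TPM, lay below WIPI1, at 14.01 TPM. GABARAPL1 ranked below GABARAPL2 and MAP1LC3B in LV5-NID1 and above both in LV5, with no overlap between neighbours. Other neighbours overlapped, namely ATG7 and WIPI1 in EV-XP-NID1-LX-2, ATG5 and WIPI1 in EV-XP-LX-2, ULK1 and ATG7 in LV5-NID1, and ATG5 and ATG7 in LV5, so their order is within the spread between libraries. For ULK1 and ATG7 the overlap again came from LV5-NID1 replicate 3 alone. The other ATG8 genes were low: MAP1LC3A was at 0.46 to 0.55 TPM with NID1 vesicles and 0.82 to 1.11 TPM with control vesicles, and at 1.28 to 2.56 TPM in LV5-NID1 and 3.08 to 4.73 TPM in LV5. MAP1LC3B2, a near-identical copy of MAP1LC3B, was at 3.04 to 4.54 TPM with NID1 vesicles and 1.44 to 2.7 TPM with control vesicles, and at 2.16 to 2.55 TPM in LV5-NID1 and 3.15 to 4.07 TPM in LV5. How reads were divided between such copies is not given in the sources used here, nor for GABARAPL1 and its copy GABARAPL3, which was at 0 in LV5-NID1 and at most 0.54 TPM in LV5. Whether strand was used in counting is likewise not given.

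The wider pathway was followed through 66 further genes. In SW480-LM3, 30 of 63 tested rose and 25 fell, near the 87.8% of all genes called. Scaling to the library total gave 38 higher and 16 lower, where 51.8% of all genes were called higher and 35.5% lower. Removal of GC and length trends gave 32 higher and 23 lower of 62 tested, beside 43.6% and 42.4% of all genes. That removal left the ULK1 rise at 0.87 on the log2 scale, and the sizes of the pathway changes below under it are not given here. STK11, the kinase LKB1 upstream of AMPK, averaged 56.1 ± 1.97 in SW480-LM3 and 7.83 ± 1.43 in SW480-P (signal, SD, n = 3 each, limma adjusted p 3.21e-12). PLEKHM1, an adaptor for fusion with lysosomes, averaged 45 ± 2.17 in SW480-LM3 and 6.96 ± 0.915 in SW480-P, and the lipid transfer gene ATG2A 44.7 ± 5.56 and 7.13 ± 0.418. The tethering gene TECPR1 completes the largest rises, with a log2 fold change of 2.32. The falls were led by MITF, a transcription factor of lysosomal genes, at 0.458 ± 0.479 in SW480-LM3 and 91 ± 6.51 in SW480-P. BNIP3, a receptor for mitochondria, averaged 0.71 ± 0.367 in SW480-LM3 and 59 ± 4.29 in SW480-P, and RETREG1, a receptor for endoplasmic reticulum, 0.731 ± 0.371 and 16 ± 0.573. ATG3, the enzyme that transfers ATG8 proteins to lipid, averaged 55.4 ± 7.63 in SW480-LM3 and 159 ± 3.45 in SW480-P (limma adjusted p 6.7e-11). Of the 8 conjugation genes other than ATG5 and ATG7, 6 fell and 2 rose, beside 43.9% of all genes in each direction. Among the other roles, 4 of 5 genes of ATG9 and lipid transfer rose and 1 fell. Of 16 upstream kinases and transcription factors 11 rose and 5 fell, and of 10 further cargo receptors 3 rose and 6 fell.

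In LX-2, 20 of 64 other pathway genes rose and 21 fell with NID1 vesicles, and their median log2 fold change was -0.08, against -0.05 over all genes. Over all genes 17.8% rose and 24.6% fell. The count moved with single libraries, to 8 higher and 17 lower without EV-XP-LX-2 replicate 1, 9 and 16 without its replicate 2, and 10 and 16 without its replicate 3. The shares of all genes moved as well, to 12.9% higher and 17.2% lower, 13.9% and 18.9%, and 13.6% and 18.6% in the same fits. The rises were led by TOLLIP, a ubiquitin-binding adaptor, at 68.6 ± 5.9 TPM with NID1 vesicles and 43 ± 1.82 TPM with control vesicles (SD, n = 3 each, limma adjusted p 0.000737). The transcription factor FOXO1, the mitochondrial receptor FUNDC1 and the ATG8 protease ATG4D followed, with log2 fold changes of 0.53, 0.5 and 0.39. WIPI2, a PI3P reader related to WIPI1, fell to 36.3 ± 2.83 TPM with NID1 vesicles, against 73.5 ± 2.25 TPM with control vesicles (limma adjusted p 0.000208). The mTORC1 inhibitor DDIT4 averaged 43.8 ± 4.92 TPM with NID1 vesicles and 86 ± 5.4 TPM with control vesicles (limma adjusted p 0.00047), and TECPR1 and TSC2 fell by 0.76 and 0.68 on the log2 scale. Of the 8 conjugation genes other than ATG5 and ATG7, 5 rose and none fell, beside the 17.8% and 24.6% of all genes. These 5 had limma adjusted p-values of 0.0024 to 0.0304. Counts by role, here and in SW480-LM3, are from the reported fit only. Whether they hold when a library is left out was not tested. None of the 8 was lower at an unadjusted limma p under 0.05 either, as 29.7% of all genes were. ATG5 itself was called higher and ATG7 lower. Among the other roles, none of 5 genes of ATG9 and lipid transfer rose and 4 fell. Of 16 upstream kinases and transcription factors 4 rose and 7 fell. Of 7 further genes of the lipid kinase complex and its partners, 2 rose and none fell.

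In LV5-NID1, none of 65 other pathway genes rose and 4 fell, beside 7.27% and 9.32% of all genes. At an unadjusted limma p under 0.05, 6 were higher and 14 lower, beside 17.1% and 17.2% of all genes. RETREG1 averaged 9.8 ± 0.204 TPM in LV5-NID1 and 15.2 ± 1.08 TPM in LV5 (SD, n = 3 each, limma adjusted p 0.00637). OPTN, a ubiquitin-binding cargo receptor, averaged 33.7 ± 2.73 TPM in LV5-NID1 and 43.1 ± 1.86 TPM in LV5 (limma adjusted p 0.0299). VAMP8, a SNARE of autophagosome fusion, averaged 108 ± 7.57 TPM in LV5-NID1 and 128 ± 4.73 TPM in LV5 (limma adjusted p 0.0479). The fourth was MAP1LC3B2, named after its values were seen, at 2.38 ± 0.199 and 3.68 ± 0.474 TPM in the same groups (limma adjusted p 0.0385). Without LV5-NID1 replicate 3 the count was 1 higher and 12 lower, beside 8.38% and 13.1% of all genes. After removal of GC and length trends it was 3 higher and 11 lower, beside 12.2% and 12.2% of all genes. Fewer were called in several other settings. Quantile normalization gave 2 higher and 1 lower, beside 8.28% and 6.84% of all genes. The replicate block gave 0 and 1, beside 1.5% and 4.24%. Without a filter on low values the count was 0 and 1, beside 1.6% and 3.11%. Leaving out any other library gave 0 higher and 1 or 2 lower, beside 1.19 to 3.79% and 3.19 to 7.01% of all genes.

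**Figure D5:**
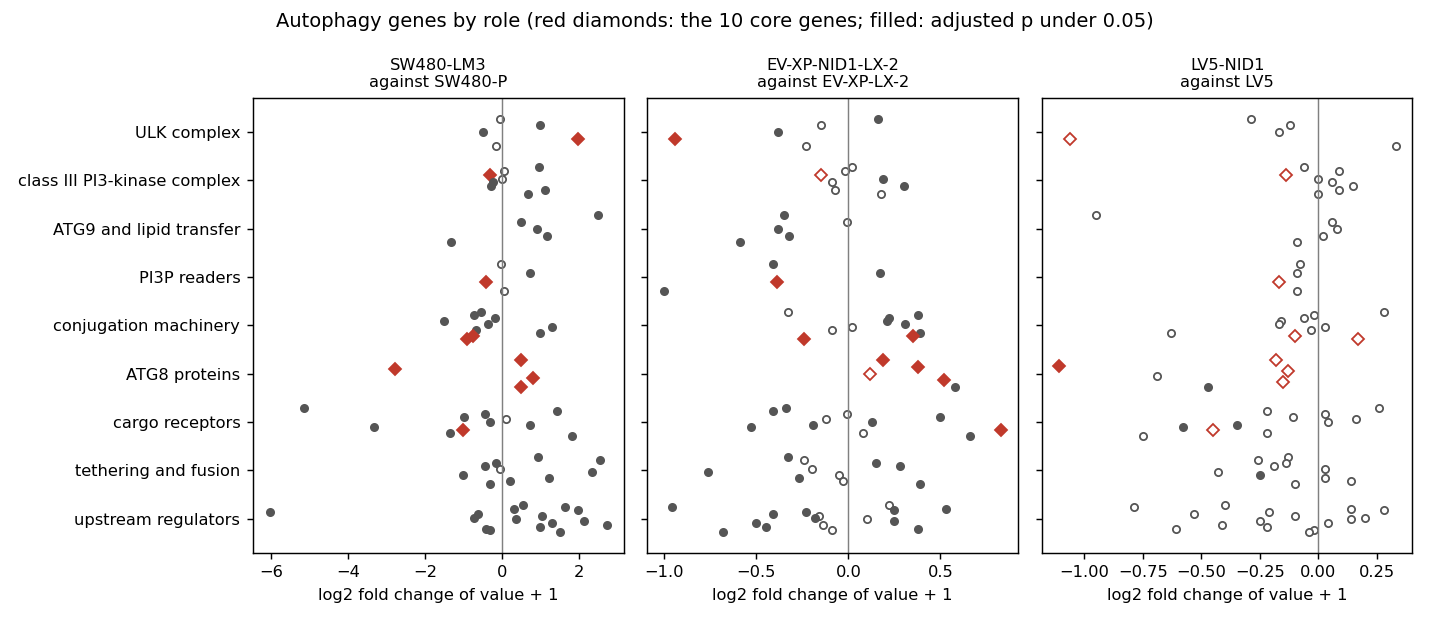
Log2 fold change of value + 1 for the core genes (red diamonds) and the other autophagy genes (grey circles) by role in the 3 comparisons; filled symbols have a limma adjusted p under 0.05. Most symbols are filled in SW480-LM3 against SW480-P, while in LV5-NID1 against LV5 GABARAPL1 and 4 other genes are.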

How the data were processed

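Gene tables of 18 poly(A) RNA libraries were analysed. Per the submitters' processing notes, HISAT2 2.1.0 and Bowtie2 2.3.5 were used, with no role named; how reads were counted, on which build and with which annotation is not given in the sources used here. The authors deposited a signal for SW480-LM3 and SW480-P that behaved as reads divided by a factor per library: 100% of values were whole reads within 0.05 read, giving 15531517 to 16586016 reads per SW480-LM3 library and 15504205 to 18965163 per SW480-P library. The other 2 tables hold TPM as deposited by the authors, at unknown depth. Each comparison was fitted alone with limma 3.58.1 (variance trend) on log2(value + 1), for genes that reached 1 in 3 or more libraries, with Benjamini-Hochberg adjustment and calls at an adjusted p under 0.05. A fold change on that scale understates the change of low genes. Ratios of 2 means were taken on the unlogged values. edgeR 4.0.16 and DESeq2 1.42.0 were run as alternatives on the recovered reads. Same-numbered replicates of the groups compared correlated at -0.047 to 0.063 across genes and were not read as pairs. Promoter windows are from RefSeq (GRCh38.p14); all 10 genes matched by symbol. GC content and length were those of the longest GENCODE 29 transcript. Genes named are the 10 core genes, NID1, the most abundant marker of a list, and up to 4 called pathway genes with the largest rise and fall per comparison and a mean of at least 5 in the higher group. Markers under 1 TPM, close copies and further ATG8 genes were named after their values were seen. The members, lists and rules were chosen with earlier results of these data known.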

Additional observations from a re-analysis of the deposited data

How the results depend on the processing

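Over 490 refits of a core gene under an alternative, 463 kept the direction and the side of the threshold, 16 lost a call, 11 gained one and none reversed. A minimum change of 1 on the log2 scale left 3 core genes, 23 other pathway genes and 6592 genes in all in SW480-LM3, 0, 0 and 280 in EV-XP-NID1-LX-2, and 0 other pathway genes and 220 genes in all in LV5-NID1. Without a filter on low values, 27 other pathway genes were called in EV-XP-NID1-LX-2, beside 17.5% of all genes. In LV5-NID1 that setting gave 1 other pathway gene and 1532 genes in all. With 1 library left out at a time, LV5-NID1 gave 713 to 3325 called genes, 1 to 4 core genes and 1 to 13 other pathway genes. EV-XP-NID1-LX-2 then gave 25 to 43 other pathway genes, beside 30.1 to 45.1% of all genes. Removal of GC and length trends, chosen after seeing the data, gave 4 core and 14 other pathway genes in LV5-NID1, beside 24.5% of all genes. Quantile normalization put 54.8% of the LV5-NID1 calls higher, against 43.8% as reported, 26.2% with the replicate block and 25.9 to 39.1% with 1 library left out. The cause of these shifts was not tested. With the replicate number as a block, 890 genes and 1 other pathway gene were called in LV5-NID1, against 2572 and 4 without it, and the block ended the GABARAP call in EV-XP-NID1-LX-2 (limma adjusted p 0.0625). The depth behind TPM is unknown, so counting error there cannot be given.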
